A study of Rattus norvegicus with 172 samples.

Results

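Cxcl1, Cxcl2 and Ccl20 encode chemokines, and Csf3r, S100a8 and S100a9 are taken here as neutrophil transcripts, a label that whole tissue cannot check. These 6 genes, chosen by symbol from the 14218 genes named on the array, were followed after complete transection of the rat spinal cord. Each has 1 probe set with a single symbol, and all 6 passed the filter on dim genes in every fit. In normal cord Cxcl1, Cxcl2, Ccl20 and Csf3r lay below the 6.55 log2 cutoff, so they entered through injured groups.

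CXCL1 and CXCL2 are ligands of the receptor CXCR2, which directs neutrophils out of the blood toward injured tissue. CCL20 binds CCR6, a receptor of dendritic cells and of lymphocyte subsets such as Th17 cells. Csf3r encodes the receptor of granulocyte colony-stimulating factor, which drives the production and survival of neutrophils. S100a8 and S100a9 encode the 2 chains of calprotectin, a metal-binding protein that fills the neutrophil cytosol and is also made by young monocytes. After spinal cord injury neutrophils are known to enter early, ahead of most blood-derived macrophages.

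The animals were female Wistar rats aged 2 months, whose cord was transected at T7-8 with a 5 mm piece taken out. In the first arm the gap was bridged with a chitosan tube seeded with an NT-3 carrier, called NT-3 tube here. A second arm, tube alone, had the chitosan tube without the carrier, and the third, lesion control, had no implant. Normal cord of the same level, with no lesion, was the baseline. The rostral stump, the lesion itself and the caudal stump were taken in 5 mm pieces with their meninges. Days 1, 3, 10, 20, 30, 60 and 90 were sampled in the stumps. The lesion was sampled from day 3, and tube alone in the lesion on day 3 only. All 3 injured arms carry the same transection, so the arms differ, as labelled, by the implant. NT-3 tube and tube alone share the tube and differ by the seeded carrier, and no group received NT-3 without a tube.

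The data held 164 arrays of injured cord in 55 groups (62 rostral, 39 lesion, 63 caudal), 3 of normal cord and 5 of a reference RNA. A group had 3 arrays except tube alone, rostral, day 10, which had 2. Each array of injured cord is a pool of 4 animals. Values are log2 signals after RMA, and array medians lay between 7.10 and 7.25. A gene was called where its adjusted p from limma was below 0.05, with Benjamini-Hochberg adjustment over all genes tested in that contrast. Normal cord carried the markers of spinal cord tissue, with mean log2 values of 13.83 for the neuronal gene Snap25, 13.81 for the astrocyte gene Gfap and 14.79 for the myelin gene Mbp. Probe sets differ in response, so levels of different genes are not set against each other. In these tissue pools a change in the number of cells of a type and a change in RNA per cell cannot be told apart.

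Cxcl1 and Cxcl2 lie 10.3 kb apart on chromosome 14 (GRCr8 17477542 to 17479321 and 17465210 to 17467255). S100a8 and S100a9 lie 22.7 kb apart on chromosome 2 (178464095 to 178465223 and 178487941 to 178490622). Ccl20 is on chromosome 9 (91837139 to 91839736) and Csf3r on chromosome 5 (143583126 to 143604382). RefSeq promoters (GRCr8) were matched for 5 of the 6 genes, all but S100a8. The 3 chemokine promoters are shown because each holds, close to the start, letters of the kind bound by NF-kappa-B, a factor that acts in inflammation. Capitals mark matches to GGGNNTTTCC on either strand (N is any base), a motif whose letters were chosen with these promoters in view. Each stretch is 5′ to 3′ on the gene's strand and ends before the start site.
Cxcl1, chr14:17479347-17479455, minus strand: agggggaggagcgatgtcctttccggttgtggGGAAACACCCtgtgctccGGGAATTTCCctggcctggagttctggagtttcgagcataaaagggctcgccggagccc
Cxcl2, chr14:17467281-17467359, minus strand: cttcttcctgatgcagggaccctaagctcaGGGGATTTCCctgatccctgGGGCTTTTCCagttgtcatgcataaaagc
Ccl20, chr9:91837020-91837129, plus strand: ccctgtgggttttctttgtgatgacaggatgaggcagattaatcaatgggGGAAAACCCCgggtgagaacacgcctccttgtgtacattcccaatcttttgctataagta
Over the 250 bases before the start, the motif occurred 2 times in Cxcl1, 2 times in Cxcl2 and 1 time in Ccl20, with no overlap between matches. Csf3r and S100a9 had 0 matches in that window. Of 33469 RefSeq promoters, 435 (1.3%) held it. The looser GGGNNNNNCC was in 42.3% of promoters. A match of letters is a description of the sequence and not evidence of binding.

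All 6 genes rose within the first days on both sides of the gap. On day 1 every gene was called higher in every stump group, 36 of 36 combinations of gene and group, where 27.2% of all combinations tested were called higher. The NT-3 rostral stump had the largest rise of the 6 stump groups in each gene, and its values are given here. Cxcl1 read 11.11, 11.37 and 11.77 there, against 5.23, 5.23 and 5.06 in normal cord. Cxcl2 read 10.74, 11.43 and 11.96, against 4.86, 4.51 and 4.53 in normal cord. Ccl20 read 8.44, 8.25 and 8.82, against 5.21, 5.05 and 4.94 in normal cord. None of these sets of arrays overlap. Csf3r read 7.47, 8.82 and 9.11, against 5.10, 5.49 and 5.14 in normal cord. S100a8 read 11.41, 12.21 and 12.63, against 7.51, 6.64 and 8.22 in normal cord. S100a9 read 12.37, 13.27 and 13.79, against 8.73, 7.26 and 9.20 in normal cord. The neutrophil transcripts did not overlap either, although S100a8 and S100a9 varied widely among the 3 normal arrays.

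As differences from normal cord on the log2 scale, Cxcl1 stood at 6.24 ± 0.46 (SE, limma, adjusted p = 3.99e-16) and Cxcl2 at 6.74 ± 0.62 (adjusted p = 5.16e-13) in this group. Ccl20 stood at 3.44 ± 0.52 (adjusted p = 1.57e-07), Csf3r at 3.22 ± 0.24 (adjusted p = 1.12e-15), S100a8 at 4.63 ± 0.81 (adjusted p = 2.76e-06) and S100a9 at 4.75 ± 0.81 (adjusted p = 1.67e-06). Over the 6 stump groups of day 1 the differences spanned 4.86 to 6.24 for Cxcl1, 3.78 to 6.74 for Cxcl2 and 2.22 to 3.44 for Ccl20. Those of the neutrophil genes spanned 1.39 to 3.22 for Csf3r, 3.53 to 4.63 for S100a8 and 2.91 to 4.75 for S100a9. The chemokine rise was thus present with the NT-3 tube, with the tube alone and with no implant.

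By day 3 the stumps of the 3 arms were no longer alike in their calls. Here 29 of 36 combinations were called higher than normal cord (32.6% of all combinations), 12 of 12 with NT-3 tube, 12 of 12 with tube alone and 5 of 12 in lesion control. Those 5 were Cxcl1 and Csf3r in both stumps and Cxcl2 in the caudal stump at 1.05. From day 10 to day 90 the genes parted in their calls. Csf3r was called higher in 30 of 30 stump groups, at 1.06 to 2.06, and Cxcl1 in 28 of 30, with a median of 1.97. Cxcl2 was called in 1 of 30 (−0.31 to 0.65) and Ccl20 in 3 of 30. S100a8 and S100a9 were called in 10 of 30 groups each, and 25.4% of all combinations were called higher over these groups. On day 90 Cxcl1 and Csf3r were still called higher in all 6 stump groups. Csf3r thus stayed called in groups where S100a8 and S100a9 mostly were not. The spread of these genes was unequal. In the NT-3 rostral stump of day 1 the SE against normal cord was 0.81 for S100a8 and S100a9 and 0.24 for Csf3r. Differences of the size seen in Csf3r could thus go uncalled in S100a8 and S100a9, and missing calls do not show a return to normal. Which cells carried Csf3r was not tested.

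In the lesion all 6 genes were called higher in all 3 arms on day 3, 18 of 18 combinations, against 41.0% of all combinations. The differences were 5.05 to 6.07 for Cxcl1, 4.71 to 7.08 for Cxcl2 and 3.22 to 4.13 for Ccl20. They were 3.28 to 3.54 for Csf3r, 3.01 to 3.43 for S100a8 and 3.26 to 3.61 for S100a9. From day 10, when the NT-3 tube and lesion control were sampled, the calls of the chemokines and of the calprotectin genes differed. Cxcl2 was called higher than normal on 5 of 5 days with the NT-3 tube (1.30 to 4.80) and on 0 of 5 in lesion control (0.36 to 0.81). S100a8 was called on 3 of 5 days with the NT-3 tube (0.02 to 3.21) and on 5 of 5 in lesion control (2.08 to 4.18), and S100a9 likewise on 3 and on 5. Cxcl1 and Ccl20 were called on 5 of 5 days in both arms. Csf3r was called on 4 of 5 days with the NT-3 tube and on 5 of 5 in lesion control. Of all combinations over those days, 39.4% were called higher with the NT-3 tube and 36.9% in lesion control. Over the 55 injured groups Cxcl1 was called higher in 53, Cxcl2 in 20, Ccl20 in 26, Csf3r in 54, S100a8 in 31 and S100a9 in 31, with 29.6% of all combinations called higher. None of the 6 genes was called lower than normal cord in any group.

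**Figure D1:**
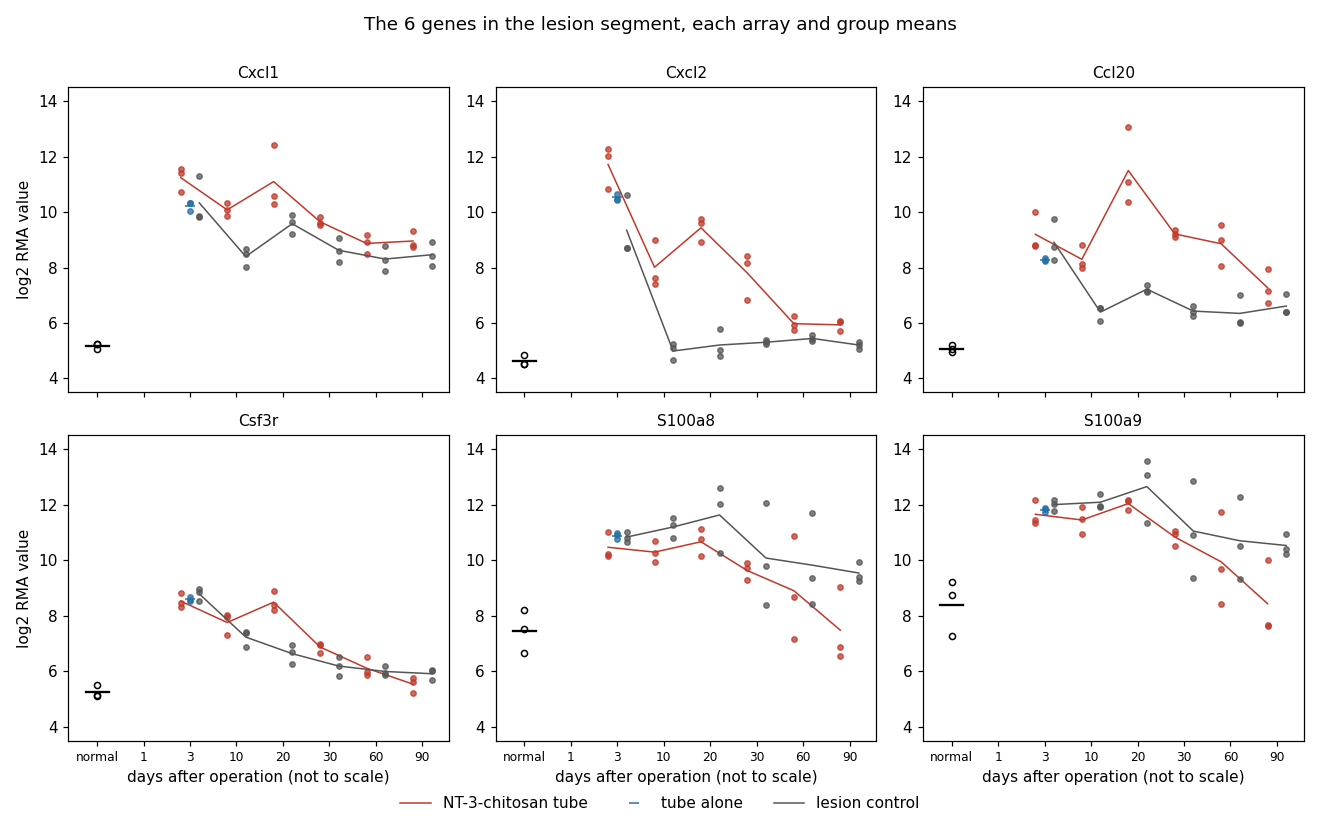
Log2 RMA values of the 6 genes in the lesion, 1 panel per gene, by day after transection (days evenly spaced, not to scale) with normal cord beside them. Points are arrays (pools of 4 animals), lines join group means: NT-3 tube red, tube alone blue (day 3 only), lesion control grey, normal cord open circles. Cxcl2 and Ccl20 of the NT-3 tube sit above lesion control from day 10 to day 30, with their highest means after day 3 on day 20, while S100a9 arrays of the arms overlap up to day 60, as do those of S100a8 except on day 10.

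Between NT-3 tube and lesion control, Cxcl2 and Ccl20 differed most in the lesion. With the NT-3 tube Cxcl2 read 12.03, 10.84 and 12.28 on day 3, against 8.71, 8.70 and 10.63 in lesion control. On day 10 Cxcl2 read 7.62, 9.01 and 7.40 with the NT-3 tube, against 5.09, 4.65 and 5.23 in lesion control. On day 20 it read 9.62, 8.92 and 9.76 with the NT-3 tube, against 4.81, 5.79 and 5.02 in lesion control. On these days every NT-3 array was above every control array, and the controls of days 10 and 20 were near normal cord. On day 30 Cxcl2 read 8.41, 8.15 and 6.84 with the NT-3 tube, against 5.24, 5.31 and 5.37 in lesion control. By day 90 it read 5.72, 6.02 and 6.06 with the NT-3 tube, against 5.22, 5.32 and 5.08 in lesion control. The groups still did not overlap on day 90, but the gap was below 1 log2 unit.

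Cxcl2 was higher with the NT-3 tube by 2.37 ± 0.42 on day 3 (SE, limma adjusted p = 0.000133), by 3.02 on day 10 (adjusted p = 1.09e-05), by 4.23 on day 20 (adjusted p = 2.18e-09) and by 2.49 on day 30 (adjusted p = 4.9e-05). Leaving out any single array kept these 4 calls. On days 60 and 90 the differences were 0.53 (adjusted p = 0.343) and 0.73 (adjusted p = 0.186).

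Within the NT-3 tube lesion Ccl20 had its highest mean on day 20 and Cxcl2 on day 3. On day 3 it read 10.00, 8.79 and 8.80 with the NT-3 tube, 8.25, 8.34 and 8.26 with tube alone, and 8.74, 8.26 and 9.74 in lesion control, with NT-3 tube and control overlapping. On day 20 it read 11.08, 10.36 and 13.05 with the NT-3 tube, against 7.17, 7.36 and 7.13 in lesion control. On day 60 it read 8.06, 9.53 and 8.98 with the NT-3 tube, against 5.99, 6.05 and 7.00 in lesion control. The groups of days 20 and 60 did not overlap, and the day 20 mean was the highest Ccl20 mean of all 55 injured groups. The difference was 0.28 ± 0.45 on day 3 (limma adjusted p = 0.707) and 1.90 on day 10 (adjusted p = 0.00837). It was 4.28 on day 20 (adjusted p = 8.22e-09), 2.78 on day 30 (adjusted p = 3.36e-05), 2.51 on day 60 (adjusted p = 0.000215) and 0.66 on day 90 (adjusted p = 0.269). The calls of days 20 to 60 were kept without any single array. That of day 10 was lost without control replicate 1, at 1.75 (adjusted p = 0.0512).

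Cxcl1 differed less between arms. On day 20 it read 10.59, 10.28 and 12.43 with the NT-3 tube, against 9.20, 9.89 and 9.65 in lesion control, without overlap. The difference was 1.68 ± 0.38 on day 10 (limma adjusted p = 0.00555) and 1.52 on day 20 (adjusted p = 0.00228), and on days 3, 30, 60 and 90 it was 0.50 to 1.03 and not called. The day 20 call rested on the array at 12.43, which is NT-3 replicate 5, and without it the difference was 0.86 (adjusted p = 0.0542). Without control replicate 2 the day 10 difference was 1.50 (adjusted p = 0.0510). Without control replicate 3 that of day 3 was 1.40 and called (adjusted p = 0.0207), and without control replicate 1 that of day 30 was 1.25 and called (adjusted p = 0.0402).

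Of the neutrophil transcripts Csf3r was called higher with the NT-3 tube on days 20 and 30, and S100a8 and S100a9 on no day. On day 20 Csf3r lay higher with the NT-3 tube, at 8.89, 8.19 and 8.39, against 6.26, 6.96 and 6.68 in lesion control. No arrays overlapped, and the difference was 1.86 ± 0.22 (limma adjusted p = 6.85e-08). On day 30 it was 0.69 (adjusted p = 0.0252), a call lost without any of 4 of the 6 arrays (0.51 to 0.69). On day 10 Csf3r stood at 0.53 (adjusted p = 0.184), which became 0.76 and called without NT-3 replicate 1 (adjusted p = 0.0368). S100a8 on day 20 read 10.75, 11.11 and 10.14 with the NT-3 tube, against 10.26, 12.61 and 12.03 in lesion control. S100a9 read 12.15, 12.17 and 11.81 with the NT-3 tube, against 11.33, 13.57 and 13.07 in lesion control. Both genes overlapped between arms, with 2 of the 3 controls above all NT-3 arrays. Their differences were −0.97 ± 0.79 (adjusted p = 0.37) and −0.61 ± 0.75 (adjusted p = 0.566). From day 3 to day 60 the differences of S100a8 lay between −0.97 and −0.37 and those of S100a9 between −0.76 and −0.21, none called. SEs of 0.75 to 0.79 mean that differences of about 1 log2 unit in these 2 genes could not be called here.

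On day 90 S100a8 read 6.54, 9.02 and 6.88 with the NT-3 tube, against 9.95, 9.40 and 9.27 in lesion control. S100a9 read 7.64, 10.00 and 7.66 with the NT-3 tube, against 10.95, 10.41 and 10.24 in lesion control. The arms did not overlap, although NT-3 replicate 2 came close to the controls. S100a8 was lower by −2.06 (limma adjusted p = 0.0486) and S100a9 by −2.10 (adjusted p = 0.0339). These calls were lost without any of 5 arrays for S100a8 (−1.59 to −2.19, adjusted p = 0.0689 to 0.215) and any of 4 for S100a9 (−1.70 to −2.25, adjusted p = 0.0660 to 0.158). In the same comparison 7 of 7 neuron, 5 of 5 oligodendrocyte, 5 of 6 skeletal muscle and 2 of 5 microglia markers were called lower, with medians of −2.38, −1.86, −3.97 and −0.42, and 5 of 7 T and B cell and 4 of 7 fibroblast markers higher, with medians of 0.97 and 0.36. Over all genes 12.3% were called lower and 16.5% higher. The class I histocompatibility genes RT1-CE10 and RT1-CE12 were both higher as well, with a median of 2.58. The part of these in the day 90 difference was not tested.

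Over the 6 genes the NT-3 tube differed from lesion control in the lesion as follows. On day 3 1 gene was called higher (9.99% of all genes), on day 10 3 (2.80%), on day 20 4 (19.5%), on day 30 3 (8.38%), on day 60 1 (15.4%) and on day 90 0 (16.5%). On day 90 2 were called lower (12.3% of all genes). Tube alone could be set beside these only on day 3. Its Cxcl2 read 10.44, 10.66 and 10.48, which is 1.18 above lesion control and not called (1.88% of all genes were called higher). That difference was 1.82 and called without control replicate 3, the high array at 10.63 (adjusted p = 0.0167). NT-3 tube minus tube alone was 1.19 for Cxcl2 (adjusted p = 0.0356), the 1 member called there (16.0% of all genes). It was lost without any of 5 of the 6 arrays (0.91 to 1.26).

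Other genes of neutrophil recruitment and of the Ccl20 pathway were also higher with the NT-3 tube on day 20. Of 12 tested chemokines and cytokines that call or mobilise neutrophils, 11 were called higher with the NT-3 tube than in lesion control and 1 lower. The median difference was 2.46, against 0.04 over all genes, of which 19.5% were called higher and 14.3% lower. The counts of this paragraph hold members again, namely Cxcl1 and Cxcl2 here, Csf3r among the receptors and Ccl20 in its own list. Besides Cxcl2 the largest were Cxcl6, another CXCR2 ligand, at 4.59 ± 0.27, and the inflammatory cytokines Il6 at 3.82 ± 0.41 and Il1b at 3.10 ± 0.29. The lower one was Ppbp, a platelet chemokine, at −1.38. Of 10 receptors 7 were called higher and 1 lower (median 1.51), among them Il1r2, the decoy receptor of interleukin 1, at 2.74 ± 0.37, Ccr1 at 2.10 ± 0.24 and Ccr6, the receptor of CCL20, at 1.81 ± 0.18. The lower one was Ackr1, the chemokine receptor of venules and red cells, at −0.81 ± 0.28. Of 7 genes for leukocyte adhesion 5 were called higher (median 1.16), led by the integrin chain Itgam at 1.97 ± 0.16. All 5 tested genes of the Ccl20 list were called higher (median 1.81), including the T cell chain Cd3e at 2.33 ± 0.21 and the cytokine subunit Il23a at 0.83 ± 0.20.

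The list of neutrophil granule and cytosol genes was split. Of 14 tested, 7 were called higher and 0 lower, with a median of −0.05, where 19.5% of all genes were called higher and 14.3% lower. Those called with the largest differences were Lcn2, an iron-siderophore binding protein, at 2.71 ± 0.55, the protease inhibitor Slpi at 2.03 ± 0.35, the gelatinase Mmp9 at 1.97 ± 0.47 and Csf3r. The other 7 were not called and all lay below 0. Chosen after their values were seen, these were S100a8, S100a9, Camp at −1.69, Mmp8 at −0.78, and the defensins Np4 at −2.02, Defa5 at −2.32 and RatNP-3b at −2.62. On the other days the 12 chemokines and cytokines and the 14 granule and cytosol genes read as follows against the shares of all genes called. On day 3, 4 and 0 were called higher and 2 and 1 lower, against 9.99% of all genes higher and 8.03% lower. On day 10, 5 and 1 were called higher and none lower, against 2.80% of all genes higher and 2.46% lower. On day 30, 7 and 3 were called higher and none lower, against 8.38% of all genes higher and 9.94% lower. On day 60, 1 and 0 were called higher and none lower, against 15.4% of all genes higher and 10.4% lower. On day 90, 2 and 1 were called higher, close to or below the 16.5% of all genes, and 0 and 3 lower (12.3% of all genes).

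Other cell type markers also differed between these lesion samples on day 20, as mean log2 shifts from normal cord per array. Of the neutrophil list 6 of 14 markers could be tested, Csf3r, S100a8 and S100a9 among them. The list ranged from 2.58 to 2.62 with the NT-3 tube, against 1.92 to 3.30 in lesion control. Monocyte and macrophage markers ranged from 3.90 to 4.03 with the NT-3 tube, against 2.69 to 2.74 in lesion control. T and B cell markers ranged from 2.68 to 3.27 with the NT-3 tube, against 1.45 to 1.53 in lesion control. Apart from the neutrophil list, none of these overlapped between arms. Skeletal muscle markers ranged from −0.07 to 2.35 with the NT-3 tube, against 4.84 to 6.26 in lesion control. Neuron markers ranged from −5.16 to −4.75 with the NT-3 tube, against −2.77 to −2.34 in lesion control. Erythroid markers ranged from −0.72 to 0.18 with the NT-3 tube, against 0.76 to 1.86 in lesion control. Platelet markers ranged from 1.09 to 1.35 with the NT-3 tube, against 1.68 to 2.72 in lesion control. Over all genes 14.3% were called lower with the NT-3 tube and 19.5% higher. By single genes, 4 of 4 erythroid, 4 of 4 platelet, 6 of 6 skeletal muscle, 5 of 7 neuron, 2 of 5 oligodendrocyte, 2 of 5 endothelium and 1 of 6 astrocyte markers were called lower with the NT-3 tube, and 8 of 9 monocyte and macrophage and 5 of 7 T and B cell markers higher. The lesion pieces thus differed in muscle, neuronal and blood cell RNA as well. The pair RT1-CE10 and RT1-CE12 ranged from 1.95 to 3.80 with the NT-3 tube, against 0.79 to 1.04 in lesion control. The part of any of these in the differences was not tested. Class I histocompatibility genes vary between stocks of rats, and the labels name no batch of animals. Where this pair parts the arms, the implant and a difference between batches of animals cannot be told apart.

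**Figure D2:**
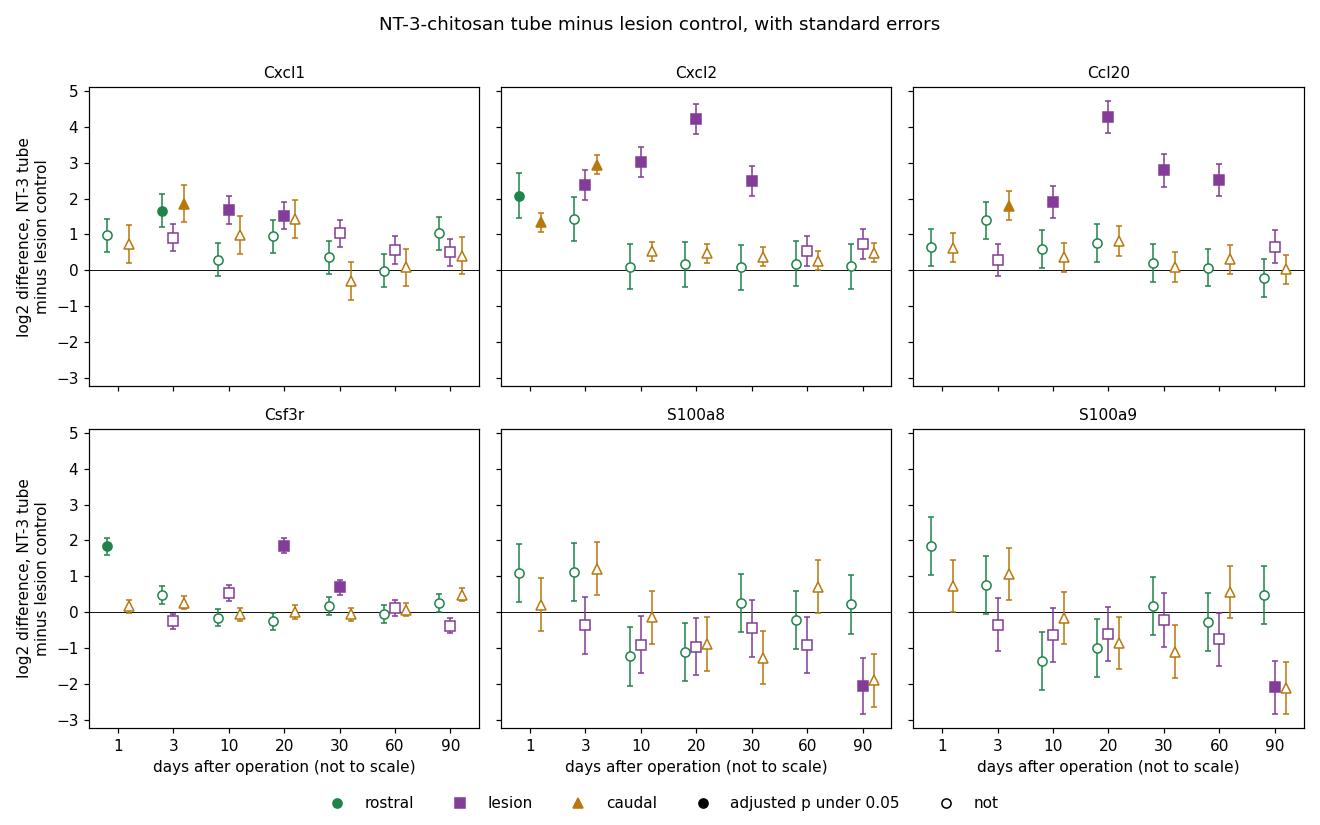
Difference between NT-3 tube and lesion control (log2, NT-3 tube minus lesion control) by day in the rostral stump (circles), the lesion (squares) and the caudal stump (triangles), 1 panel per gene. Bars are SE from limma and filled symbols have an adjusted p under 0.05. The lesion values of Cxcl2 and Ccl20 peak at 4.23 and 4.28 on day 20, and the stumps are called on days 1 and 3 only.

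In the stumps the calls between arms fell on days 1, 3 and 90. On day 1 the rostral stump of lesion control had Cxcl2 at 10.78, 8.46 and 8.64, below the 10.74, 11.43 and 11.96 of the NT-3 tube except in replicate 1. Tube alone read 9.49, 10.09 and 10.35. NT-3 tube minus lesion control was 2.08 ± 0.62 for Cxcl2 (limma adjusted p = 0.00922) and 1.84 ± 0.24 for Csf3r (adjusted p = 3.47e-07), 2 of 6 members where 17.3% of all genes were called higher. Csf3r was at 7.47, 8.82 and 9.11 with the NT-3 tube, 7.07, 7.67 and 7.07 with tube alone and 6.84, 6.48 and 6.57 in lesion control, with every NT-3 array above every control array. S100a9 also did not overlap with control but missed the threshold, at 1.84 ± 0.81. The Cxcl2 call was lost without NT-3 replicate 3 (1.79, adjusted p = 0.0740), control replicate 2 (1.67, adjusted p = 0.0889) or control replicate 3 (1.76, adjusted p = 0.0589). Without control replicate 1, which had the highest chemokine values of its group, Cxcl1 at 1.62 (adjusted p = 0.0127) and Ccl20 at 1.48 (adjusted p = 0.0401) were called as well. Between NT-3 tube and tube alone Csf3r was called, at 1.20 (adjusted p = 0.0049, 1.02% of all genes higher), and this was lost without NT-3 replicate 2 (1.02) or 3 (0.88). Tube alone minus lesion control gave no call among the 6 genes on that day.

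The same rostral day 1 comparison called 6 of 10 chemokines and cytokines higher and 0 lower (median 0.98, against 0.02 over all genes). Over all genes 17.3% were called higher there. They included Cxcl3, a CXCR2 ligand, at 1.83 ± 0.29, Il1b at 1.89 ± 0.60 and Ptgs2, an inducible cyclooxygenase, at 1.70 ± 0.36. Of 9 receptors 6 were called higher, among them Cxcr2 itself at 1.50 ± 0.20. Of 14 granule and cytosol genes 6 were called higher, led by the neutrophil proteases Mmp9 at 2.63 ± 0.67 and Mmp8 at 2.46 ± 0.46. Neutrophil markers, Csf3r, S100a8 and S100a9 among them, were taken as mean shifts from normal cord. They ranged from 2.27 to 3.61 with the NT-3 tube, 1.92 to 2.19 with tube alone and 1.15 to 1.93 in lesion control. The histocompatibility pair ranged from 2.83 to 3.66 with the NT-3 tube, 3.05 to 3.29 with tube alone and 0.17 to 0.22 in lesion control. Of the other marker lists, 4 of 5 endothelium (median 0.62), 2 of 2 platelet (1.08), 3 of 5 T and B cell (0.58), 3 of 8 monocyte and macrophage (0.32), 2 of 7 fibroblast (0.68) and 2 of 2 epithelium and keratinocyte markers (0.78) were called higher with the NT-3 tube than in lesion control. At most 14.4% of all genes were called lower in any rostral comparison of arms. Lower here were 4 of 7 neuron (−0.38), 2 of 5 oligodendrocyte (−0.09), 2 of 6 astrocyte (−0.07) and 2 of 5 microglia markers (−0.05). The part of all these in the differences between arms was not tested.

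In the caudal stump on day 1 Cxcl2 read 9.89, 9.34 and 10.02 with the NT-3 tube, 8.85, 9.80 and 8.24 with tube alone and 8.87, 7.70 and 8.67 in lesion control. NT-3 arrays lay above all controls, by 1.34 ± 0.27 (limma adjusted p = 0.000743), and Cxcl2 was the 1 member called (4.63% of all genes). Against tube alone, with which they overlapped, the difference was 0.79 (adjusted p = 0.0333, 11.8% of all genes), lost without any of 4 arrays (0.43 to 0.73). The histocompatibility pair again stood apart, at 2.72 to 3.37 with the NT-3 tube, 2.76 to 3.27 with tube alone and 0.03 to 0.27 in lesion control.

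On day 3 the chemokines of the caudal stump were higher with either tube than without one. Cxcl2 read 8.55, 8.26 and 9.07 with the NT-3 tube, 7.13, 7.71 and 7.89 with tube alone and 5.72, 5.43 and 5.91 in lesion control. Cxcl1 read 9.46, 9.80 and 10.29 with the NT-3 tube, 9.15, 10.52 and 9.33 with tube alone and 7.92, 7.67 and 8.39 in lesion control. Ccl20 read 7.66, 7.34 and 8.12 with the NT-3 tube, 7.99, 9.61 and 7.33 with tube alone and 5.94, 5.73 and 6.04 in lesion control. For all 3 genes both tube arms lay above every control array. NT-3 tube minus lesion control was 2.94 ± 0.27 for Cxcl2 (limma adjusted p = 8.09e-11), 1.86 ± 0.52 for Cxcl1 (adjusted p = 0.0323) and 1.80 ± 0.41 for Ccl20 (adjusted p = 0.0065), 3 of 6 members (1.59% of all genes). Tube alone minus lesion control was 1.89 for Cxcl2 (adjusted p = 1.29e-05) and 2.41 for Ccl20 (adjusted p = 0.000239), 2 of 6 members (1.60% of all genes), and Cxcl1 at 1.67 was called only without tube replicate 1 (1.93, adjusted p = 0.0450). Cxcl2 was the 1 member called between NT-3 tube and tube alone, at 1.05 (adjusted p = 0.0286, 0.836% of all genes), lost without any of 5 arrays (0.83 to 1.21). The NT-3 call of Cxcl1 was lost without any of 4 arrays (1.64 to 2.05) and that of Ccl20 without NT-3 replicate 3 (1.60, adjusted p = 0.0689). Csf3r, S100a8 and S100a9 were not called between any arms there. In the wider lists 5 of 9 chemokines and cytokines were called higher with the NT-3 tube than in lesion control, Il6 at 2.07 ± 0.21 and Ccl3, a CC chemokine, at 1.12 among them. Of 14 granule and cytosol genes 1 was called higher, Slpi at 1.26 ± 0.37. The histocompatibility pair ranged from 0.81 to 2.18 with the NT-3 tube, 0.42 to 0.61 with tube alone and 0.55 to 0.63 in lesion control, so tube alone and lesion control overlapped in it here.

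In the rostral stump on day 3 a single array carried much of the tube values. Cxcl2 read 8.38, 6.60 and 6.88 with the NT-3 tube, 5.93, 12.12 and 7.94 with tube alone and 5.81, 5.73 and 6.03 in lesion control. Ccl20 read 7.62, 6.70 and 6.54 with the NT-3 tube, 6.89, 10.56 and 7.56 with tube alone and 5.13, 5.85 and 5.71 in lesion control. Tube replicate 2 was the highest array of that group for all 6 genes, up to 13.53 in S100a9. Tube alone minus lesion control was called for 3 members (1.70% of all genes), Cxcl1 at 1.99 (limma adjusted p = 0.00941), Cxcl2 at 2.81 (adjusted p = 0.00746) and Ccl20 at 2.77 (adjusted p = 0.00155). Without tube replicate 2 these were 1.11 (adjusted p = 0.204), 1.08 (adjusted p = 0.208) and 1.66 (adjusted p = 0.0711), and Cxcl1 was also lost without control replicate 1 (1.89, adjusted p = 0.0589). NT-3 tube minus lesion control was called for Cxcl1 alone, at 1.66 (adjusted p = 0.0197, 4.19% of all genes), and lost without any of 4 arrays (1.46 to 1.72). Cxcl2 and Ccl20 of the NT-3 tube also lay above every control array, without a call. The spread in this fit is shared by all rostral groups, tube replicate 2 included. Missing calls thus do not show that these arms were alike in Cxcl2 and Ccl20.

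From day 10 to day 90 no stump comparison of NT-3 tube with lesion control was called for any of the 6 genes, 0 of 60, where 0.548% of all combinations were called higher and 0.314% lower. Tube alone showed one late exception in the rostral stump. On day 90 S100a8 read 5.65, 6.90 and 6.72 with the NT-3 tube, 8.54, 12.25 and 9.59 with tube alone and 6.20, 6.28 and 6.15 in lesion control. S100a9 read 6.46, 7.99 and 7.64 with the NT-3 tube, 9.38, 13.04 and 10.53 with tube alone and 7.29, 6.68 and 6.68 in lesion control. All tube arrays were above all others, replicate 2 the furthest. Tube alone minus lesion control was 3.92 ± 0.81 for S100a8 (limma adjusted p = 0.000515) and 4.10 ± 0.81 for S100a9 (adjusted p = 0.0003), the 2 members called (13.4% of all genes higher). NT-3 tube minus tube alone was −3.70 (adjusted p = 0.00195) and −3.62 (adjusted p = 0.00245), 2 members lower (4.55% of all genes). Without tube replicate 2 the NT-3 comparison gave −2.64 (adjusted p = 0.0761) and −2.59 (adjusted p = 0.0864), while tube alone minus lesion control kept both calls. Erythroid markers were also highest with tube alone in the same samples, at −0.47 to 0.82. They were at −0.97 to −0.55 with the NT-3 tube and −1.16 to −0.95 in lesion control. All tube arrays were above all others in these markers too, and their part was not tested. Single high arrays for calprotectin occurred in another group too, as in lesion control, rostral, day 20, where replicate 3 read 12.68 for S100a8 and the other two read 8.42 and 9.03.

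**Figure D3:**
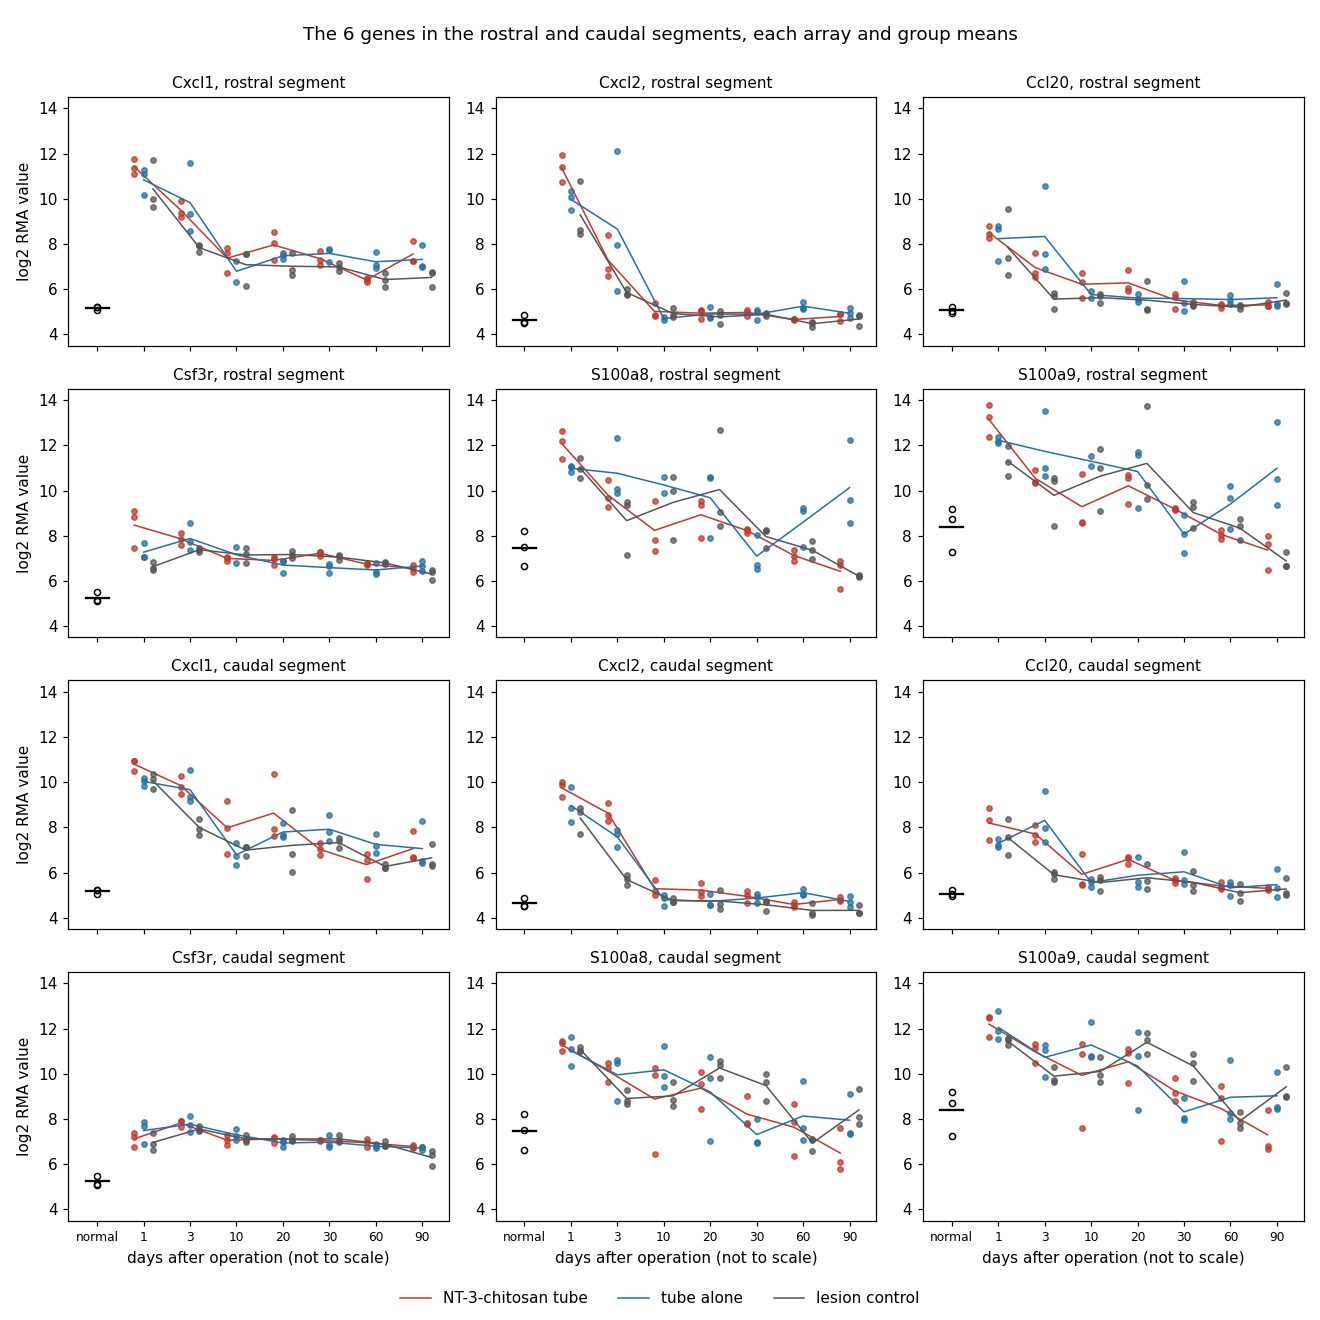
Log2 RMA values of the 6 genes in the rostral stump (upper 2 rows) and the caudal stump (lower 2 rows) by day, with normal cord beside them. Points are arrays, lines join group means: NT-3 tube red, tube alone blue, lesion control grey, normal cord open circles. All genes stand above normal cord on day 1, the chemokines of lesion control lie below both tube arms in the caudal stump on day 3, and tube alone stands apart for S100a8 and S100a9 in the rostral stump on day 90.

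Set against the stumps of the same arm and day, the lesion held the higher chemokine values with the NT-3 tube. Cxcl1, Cxcl2 and Ccl20 were called higher in the lesion than in either stump in 12 of 12 comparisons each, by 1.39 to 3.14, 1.12 to 4.49 and 1.49 to 5.22. Over all genes 34.1% of these combinations were called higher and 28.8% lower. S100a8 was called higher in 2 of 12 and S100a9 in 3 of 12, and Csf3r higher in 6 and lower in 4. In lesion control Cxcl1 was called higher in 12 of 12, Ccl20 in 9 and Cxcl2 in 3, while S100a8 and S100a9 were called in 7 of 12 each (31.4% of all combinations higher, 29.1% lower). Csf3r was lower in the lesion than in a stump in 5 of 12 comparisons of lesion control and higher in 2. With tube alone on day 3, Cxcl2 and Csf3r were higher in the lesion than in both stumps (28.9% of all combinations), and Ccl20 differed by −0.05 and −0.03. These Ccl20 means rest in part on replicate 2 of each stump, at 10.56 rostral and 9.61 caudal. The other arrays read 6.89 and 7.56 rostral and 7.99 and 7.33 caudal, against 8.25, 8.34 and 8.26 in the lesion.

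Few calls separated the 2 stumps. Of 126 comparisons of rostral with caudal, 2 were called, close to the 1.09% of all combinations called higher. SEs such as the 0.49 of Cxcl2 below leave room for differences that could not be called. Few calls thus do not show that the stumps were alike. Both calls were of the NT-3 tube on day 1. Cxcl2 was higher rostral by 1.63 ± 0.49 (limma adjusted p = 0.0409), lost without any of 5 arrays (1.33 to 1.76), and Csf3r by 1.34 ± 0.22 (adjusted p = 2.19e-05). The difference between NT-3 tube and lesion control was itself larger rostral than caudal for Csf3r on day 1, by 1.68 ± 0.32 (adjusted p = 0.001), 1 of 42 such tests (0.833% of all combinations higher).

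Whether the implant difference was larger in the lesion than in the stumps was tested as well, a test added after seeing the data. Of 72 tests 14 were called higher in the lesion and 0 lower (6.38% of all combinations higher). Cxcl2 stood at 4.06 ± 0.69 over the rostral and 3.75 over the caudal stump on day 20 (limma adjusted p = 1.61e-06 and 1.37e-05), and was also called on days 10 and 30. Ccl20 stood at 3.51 and 3.46 on day 20 (adjusted p = 3.27e-05 and 6.25e-05), and was also called on days 30 and 60. Csf3r stood at 2.12 and 1.85 on day 20 (adjusted p = 8.09e-08 and 3.2e-06). S100a8 and S100a9 were not called on any day, at −2.58 to 0.89. The day 20 values and those of Ccl20 on day 30 were kept without any single array. Over the caudal stump, Cxcl2 on days 10 and 30 and Ccl20 on day 60 were lost without several single arrays, and Cxcl2 on day 10 over the rostral stump was lost without NT-3 lesion replicate 2 (2.42, adjusted p = 0.104).

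Between consecutive days the genes fell more often than they rose. From day 1 to day 3 in the stumps 15 of 36 comparisons were called lower and 4 higher (16.6% of all combinations lower, 18.4% higher). Of those 4, 3 were Csf3r, at 0.59 to 0.75, and the fourth was Ccl20 of tube alone in the caudal stump at 1.02 (limma adjusted p = 0.0404). From day 3 to day 10, 23 of 48 were called lower (22.0% of all combinations), Cxcl2 in 7 of 8, Cxcl1 and Csf3r in 6 of 8 and Ccl20 in 4 of 8. S100a8 and S100a9 were called in 0 of 8. In the lesion Cxcl2 fell by 3.71 with the NT-3 tube and by 4.36 in lesion control over that interval, while S100a8 differed by −0.18 and 0.36. Later, 2 of 144 stump comparisons were called lower (2.29% of all combinations).

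In the lesion after day 10, 5 of 48 comparisons were called higher and 7 lower (8.96% and 8.22% of all combinations). Of these, 4 rises were those of the NT-3 tube between days 10 and 20, where 19.0% of all genes were called higher. Ccl20 was higher on day 20 than on day 10 by 3.20 ± 0.45 (limma adjusted p = 6.15e-06), which no single array undid. Cxcl2 by 1.42 (adjusted p = 0.0140), Cxcl1 by 1.02 (adjusted p = 0.0483) and Csf3r by 0.73 (adjusted p = 0.0153) were each called too, and each lost its call without single arrays. Without NT-3 replicate 5 of day 20, Cxcl1 stood at 0.36 (adjusted p = 0.493) and Cxcl2 at 1.26 (adjusted p = 0.0744). The remaining rise was Cxcl1 of lesion control over the same interval, at 1.18 (adjusted p = 0.0344). By day 30 the same 4 genes had fallen again with the NT-3 tube, 4 of 6 members (7.87% of all genes lower), by 1.45 for Cxcl1, 1.63 for Cxcl2, 2.28 for Ccl20 and 1.62 for Csf3r. The fall of Cxcl1 was 0.79 without NT-3 replicate 5 of day 20 and not called (−0.79, adjusted p = 0.169). S100a8 and S100a9 were not called in either interval in either arm. The histocompatibility pair moved between days as well. With the NT-3 tube its median difference was 1.51 from day 10 to day 20 and 1.36 from day 20 to day 30. In lesion control it was 0.01 and 2.86 over these intervals. From day 30 to day 60 it was −2.75 with the NT-3 tube and −2.64 in lesion control. Where the pair moves, day and batch of animals cannot be told apart.

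Over the 56 groups of cord, normal included, group means of Cxcl1 and Cxcl2 went together with Pearson r = 0.91, Cxcl1 and Ccl20 with 0.90 and Cxcl2 and Ccl20 with 0.85. S100a8 and S100a9 reached 0.99. Cxcl2 with S100a9 gave 0.64 over all groups, 0.70 rostral, 0.68 caudal and 0.44 in the 14 groups of the lesion fit. These are descriptions, since the groups share the injury and the days. The genes with the most similar group means were Ccl2 (0.958), Ccl7 (0.950) and Slpi (0.947) for Cxcl1. For Cxcl2 they were Cxcl3 (0.962), Il6 (0.957) and Tgm1 (0.947), and for Ccl20 they were Plet1 (0.924), Il1b (0.921) and Birc3 (0.914). Csf3r was most like Mapkapk3 (0.912), Tlr2 (0.893) and Capza1 (0.885). S100a8 was most like Pglyrp1 (0.900), Lrg1 (0.837) and Nfe2 (0.832), and S100a9 was most like the same 3 genes, at 0.905, 0.825 and 0.849.

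**Figure D4:**
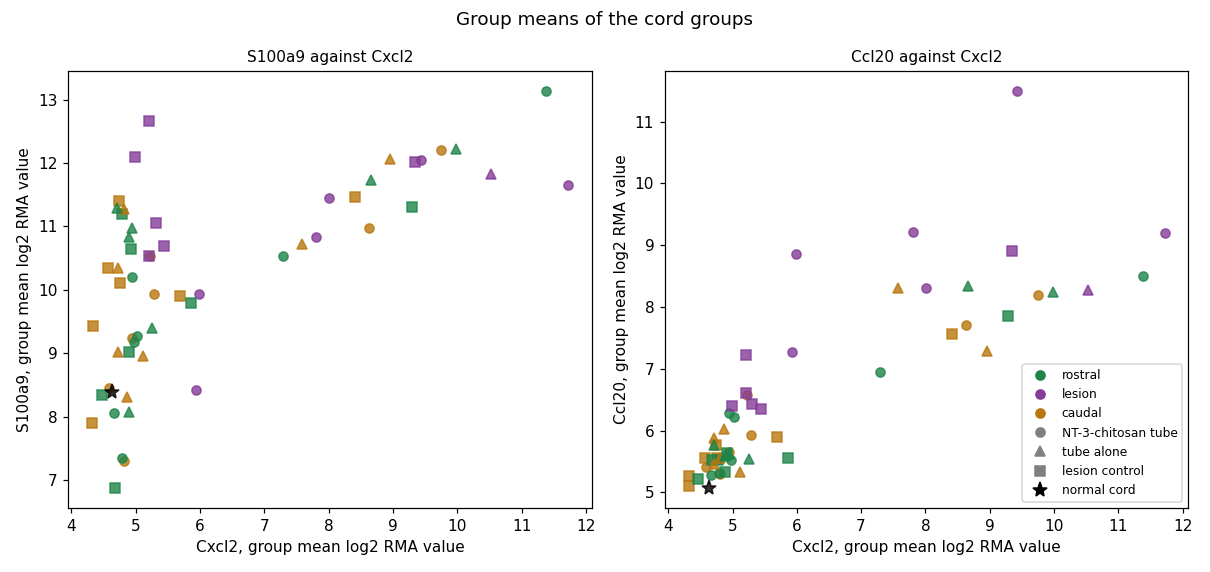
Group means (log2 RMA) of S100a9 against Cxcl2 and of Ccl20 against Cxcl2 in the 56 cord groups, coloured by segment and shaped by arm. Ccl20 follows Cxcl2 more closely (r = 0.85) than S100a9 does (r = 0.64), and several groups have high S100a9 with Cxcl2 near normal cord.

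Deviations of the 164 injured arrays from their group means kept the same pairs together. S100a8 and S100a9 deviated together at r = 0.98, and S100a9 with Pglyrp1, a neutrophil granule protein, at 0.79, with Camp at 0.76 and with the erythroid gene Ahsp at 0.61. Cxcl2 deviated with Cxcl3 at 0.80, with Il1b at 0.74, with Il6 at 0.67 and with Ccl20 at 0.57. Csf3r deviated with S100a9 at 0.52. The points share the array normalization, and no p is given.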

How the data were processed

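RNA of pooled cord pieces was hybridised to Affymetrix rat 230 2.0 arrays. The deposited values are log2 signals that the authors made with Affymetrix Expression Console and RMA, per the submitters' processing notes. The sources used here give no versions. RMA draws low signals together, so small differences near background are compressed. The number of arrays limits the precision, and p-values measure the spread between pools.

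Of 31099 probe sets 20832 had 1 symbol, 436 had several and 9831 were not listed in the annotation used here. Each gene was read from whichever of its probe sets averaged highest on the cord arrays. Genes were tested where any group mean reached the 40th percentile of cord values (6.55), which left 11553 genes rostral, 11922 in the lesion, 11479 caudal and 11989 in the fit of all cord arrays. limma 3.58.1 in R 4.3.3 (lmFit with 1 mean per group, eBayes, two-sided, Benjamini-Hochberg within each contrast) was run apart for each segment with normal cord, and once on all cord arrays for contrasts between segments. It was tested on simulated data. Percentages over several comparisons pool genes and comparisons. Tables and figures used Python 3.11.15, pandas 2.3.3, numpy 2.4.6 and matplotlib 3.10.9.

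The 6 genes and all lists were chosen with earlier results of these data known, the histocompatibility pair among them. Of the entries 15 of 17 chemokines and cytokines, 10 of 13 receptors, 7 of 9 adhesion genes, 15 of 24 granule and cytosol genes and 5 of 7 of the Ccl20 list matched. Named genes are the 6, the 3 most similar to each, and per list the 4 called with the largest difference, unless the text says otherwise. Alternatives were each array left out in turn, fits on only the compared groups, a replicate block, array weights, a robust eBayes prior with trend, a further quantile normalization, a minimum of 1 log2 unit and no dim filter. In the refits each contrast lost 1 array, while arrays at the same place in groups of alternate days were left out together. Replicate numbers were not used as pairs in the main fits, which treat the arrays as independent, and scan dates were not used.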

Additional observations from a re-analysis of the deposited data

Results flagged for a closer look

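Differences between NT-3 tube and lesion control differed between places. For Csf3r on day 1 the difference was larger rostral than caudal by 1.68, and within the NT-3 tube group of day 1 Cxcl2 and Csf3r were higher rostral than caudal by 1.63 and 1.34. In the test added after seeing the data, the difference between arms in Cxcl2 was larger in the lesion than in the rostral stump by 2.92 on day 10, 4.06 on day 20 and 2.41 on day 30, and larger than in the caudal stump by 2.49, 3.75 and 2.12. For Ccl20 it was larger than in the rostral stump by 3.51 on day 20, 2.58 on day 30 and 2.44 on day 60, and larger than in the caudal stump by 3.46, 2.69 and 2.21. For Csf3r it was larger by 2.12 and 1.85 on day 20.

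The 5 arrays of reference RNA, which enter no comparison, had a signal above normal cord for 3 of the genes. Cxcl1 averaged 12.76 (12.66 to 12.81) there, against 5.06 to 5.23 in normal cord. Cxcl2 averaged 6.48 (6.19 to 6.99), against 4.51 to 4.86 in normal cord, and Ccl20 averaged 7.59 (7.03 to 7.94), against 4.94 to 5.21 in normal cord. S100a9 ranged from 4.58 to 5.28 in the reference RNA, against 7.26 to 9.20 in normal cord.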

How the results depend on the processing

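Of 1302 contrasts of a gene, 422 were called, 118 of which lost the call in at least 1 refit without 1 array of a compared group, and 61 others gained one (60 refits within segments, 51 over all cord arrays). The counts that follow add up contrasts that each lost the array at the same place in one of their groups, and in tests over 4 groups a call counted only if it was kept whichever array on that side was left out, so they can lie below what dropping 1 array overall gives. Counts called higher than normal cord ranged over 50 to 53 for Cxcl1, 19 to 21 for Cxcl2, 24 to 28 for Ccl20, 54 for Csf3r, 22 to 31 for S100a8 and 21 to 36 for S100a9, with 0 lower. NT-3 tube minus lesion control ranged over 10 to 13 higher and 0 to 2 lower in the lesion and 3 to 7 higher and 0 lower in the stumps. Tube alone minus lesion control gave 4 to 9 higher and 0 lower, NT-3 tube minus tube alone 0 to 5 higher and 0 to 4 lower. Consecutive days gave 5 to 9 higher and 40 to 48 lower, lesion minus stumps 77 to 85 higher (91 with all arrays) and 7 to 10 lower, rostral minus caudal 1 to 3 higher and 0 lower, the test of implant by stump 1 higher and 0 lower, and the added test 10 to 11 higher (14 with all arrays) and 0 lower.

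Array weights raised the counts most and called about 3.79 times as many genes between arms over all genes (3.18 times between days, 60 times in the test of implant by stump, 2.19 times in the added test). Under them S100a8 was called lower than normal in 5 groups and S100a9 in 4, against 0 each. Consecutive days gave 79 lower, against 47. In the stumps NT-3 tube minus lesion control gave 13 higher and 4 lower (7 and 0). Over all segments tube alone minus lesion control gave 12 higher and 3 lower (7 and 0) and NT-3 tube minus tube alone 11 higher (4). Rostral minus caudal gave 6 higher and 7 lower (2 and 0), and implant by stump 2 higher and 1 lower (1 and 0). Reversed under array weights were S100a8 at −1.13 and S100a9 at −1.16 for day 20 minus day 10 of lesion control rostral, and Csf3r at 0.30 for NT-3 tube minus tube alone, caudal, day 1. The cause was not tested.

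With only the groups in the contrast, 0.323 times as many genes were called between arms, 0.607 times between days and 0.727 times in the added test, where fewer arrays estimate the spread. S100a8 and S100a9 were then each lower than normal in 1 group, NT-3 tube minus tube alone gave 6 lower (2), rostral minus caudal 0 higher and 2 lower (2 and 0), and the added test 5 lower (0). A minimum of 1 log2 unit left 5 rises between days (9) and 2 lower in lesion minus stumps (9). NT-3 tube minus lesion control in the lesion gave 1 lower (2) with no dim filter, with trend and robust prior, and with the replicate block. The replicate block also gave 1 lower for rostral minus caudal (0) and 3 lower for the added test (0). Deviations of same-numbered rostral and caudal arrays correlated with a median of 0.11, over 0.1 in 32 of 62 pairs. Rostral and caudal arrays of other numbers gave −0.01, over 0.1 in 37 of 124 pairs. Same-numbered pieces were thus slightly more alike, and the labels do not say whether equal numbers mark the same animals. A second quantile normalization moved the median of all genes by up to 0.113 against normal cord and 0.128 between days, and changed no count above by over 1.5 times.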
